A study of Homo sapiens with 6 samples.

Results

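The genes described here are the ligands, receptors, secreted antagonists and core transducers of Wnt signalling, measured by RNA-seq in SKNMC Ewing sarcoma cells that received a transcription factor, NFIB, with or without its disordered region. They were taken by name from the table of gene counts, namely every row called WNT or FZD followed by a digit and 37 genes listed singly, which gave 65 of 22604 genes. Of these, 39 passed the filter on low counts and were tested among 13501 genes, and 26 lay below it. The 3 groups had 2 libraries each, described by the study as biological duplicates. NFIB WT cells expressed V5-tagged full-length NFIB from a lentivirus, NFIB ΔIDR cells expressed V5-tagged NFIB lacking its C-terminal intrinsically disordered region, and EV cells carried the empty vector. All 3 groups were infected and selected with puromycin, and all carry the EWS-FLI1 fusion of this line together with their own NFIB gene.

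Wnt proteins are lipid-modified secreted ligands that bind Frizzled receptors. With the coreceptors LRP5 and LRP6 they stop the destruction complex from degrading beta-catenin, which then acts with TCF/LEF factors in the nucleus, and with receptors such as ROR1, ROR2 and RYK they signal without beta-catenin, often to the cytoskeleton. Secreted antagonists act outside the cell: SFRP proteins bind Wnts, and Dickkopf proteins bind LRP6, for which Kremen proteins serve as partners. DKK2 is known as a gene of high expression in Ewing sarcoma.

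The libraries held 6664231 to 8465572 counts. Levels are TMM-scaled CPM, that is counts scaled to a common library size. Folds and p values come from the quasi-likelihood test of edgeR over all 6 libraries, with p adjusted by Benjamini-Hochberg across the 13501 genes, and a gene is called where the adjusted p is under 0.05. NFIB itself, which checks the labels, was at 969 and 1050 CPM in NFIB WT cells and 2230 and 2330 CPM in NFIB ΔIDR cells, against 176 and 145 CPM in EV cells, so the shorter form was present at a higher RNA level than the full-length form (log2 difference -1.17 ± 0.10 SE for NFIB WT over NFIB ΔIDR). The level of the construct and the presence of the disordered region therefore cannot be told apart in a comparison of both constructs. The 2 NFIB WT libraries differed more from each other than the other pairs did, with an SD of the log2 difference over genes of 0.376, against 0.279 in NFIB ΔIDR and 0.281 in EV. Of the markers of an Ewing sarcoma line, 6 of 7 in the table passed the filter, FATE1 being the exception. CD99, also listed, had no row in the table of counts. NR0B1, NKX2-2 and FLI1 were called in no comparison (adjusted p from 0.241 to 0.874 by edgeR). LIPI averaged 114 CPM in NFIB WT and 79.9 CPM in NFIB ΔIDR cells, against 74.4 CPM in EV cells, and was higher in NFIB WT than in EV (adjusted p = 0.0376 by edgeR) and in NFIB ΔIDR cells (0.0172). Between the constructs STEAP1 was lower in NFIB WT cells (222 and 280 CPM, adjusted p = 0.0258) and CCND1 was higher (1580 and 1180 CPM, 0.00524). Of the leukocyte markers, PTPRC was at a mean of 263 CPM in NFIB WT, 297 CPM in NFIB ΔIDR and 257 CPM in EV cells, while CD3E and CD14 had at most 3 counts in any library. Of the markers of other cells, EPCAM (epithelial) averaged 6.97 to 8.18 CPM, CDH5 (endothelial) 1.33 to 1.62 and MYH3 (skeletal muscle) 3.87 to 5.52 CPM over the groups. None of them was called. The part of these markers in the results was not tested.

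Full-length NFIB against the empty vector called 1 of the 39 Wnt genes, DKK2, which was higher, and none as lower. Over all genes tested, 0.452% were called higher and 0.163% lower in that comparison. At an unadjusted p under 0.05 it held 9 of 39, beside 13.4% of all genes. NFIB ΔIDR against the empty vector called none of the 39, where 0.296% of all genes were called higher and 0.356% lower (edgeR). At an unadjusted p under 0.05 there were 9 of 39, beside 15.2% of all genes. DESeq2 also called 0, while an edgeR fit of these groups alone called 7, beside 1883 of all genes. Those 7 were APC, AXIN2, DKK1, FZD3, FZD4, KREMEN1 and WNT5A. Between the constructs, 6 Wnt genes were higher in NFIB WT cells (DKK2, KREMEN1, WNT5A, FZD4, FZD1 and FZD6), beside 5.52% of all genes tested. The 1 lower gene was DKK1, beside 5.19% of all genes, and it passed the filter only through its NFIB ΔIDR counts. At an unadjusted p under 0.05 there were 15 of 39 between the constructs, beside 27.5% of all genes.

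The median of the Wnt genes lay close to that of all genes. Their median log2 fold change was 0.04 for NFIB WT against EV (0.02 without DKK1, which lay at the counting floor there), -0.00 for NFIB ΔIDR against EV and -0.01 for NFIB WT against NFIB ΔIDR, and the median over all genes tested was 0.00 in the first 2 comparisons and -0.00 in the third. Between the constructs 19 members lay above 0 and 20 below, and their log2 fold changes ran from -2.11 to 1.36. An adjusted p under 0.1 was reached by 2 members for NFIB WT against EV (1.70% of all genes), 2 for NFIB ΔIDR against EV (2.04%) and 11 for NFIB WT against NFIB ΔIDR (17.4%). A fold of at least 1.5 with an unadjusted p under 0.05 was reached by 3 members for NFIB WT against EV (3.88% of all genes), 5 for NFIB ΔIDR against EV (4.77%) and 9 for NFIB WT against NFIB ΔIDR (9.98%). Because the first 2 comparisons share the EV libraries, their values are given side by side only.

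**Figure D1:**
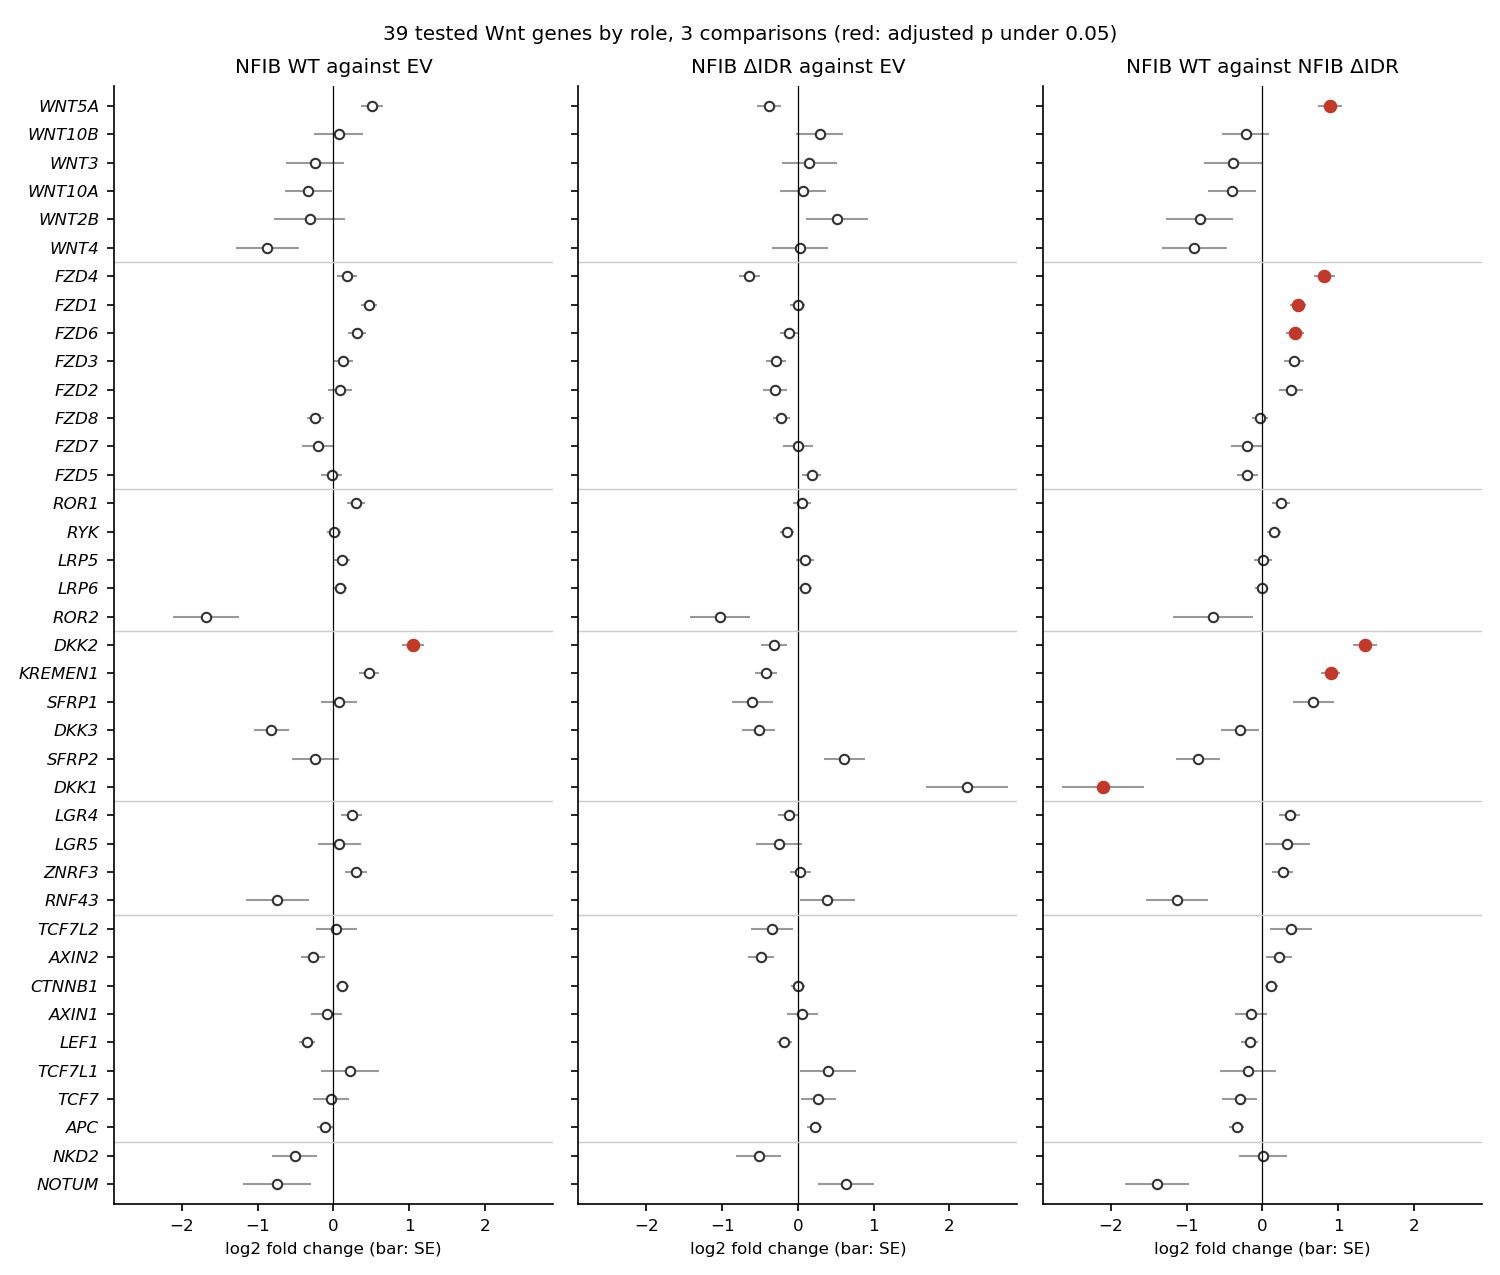
Log2 fold change of each of the 39 tested Wnt genes (x axis, bars are SE) in the 3 comparisons, with genes in rows grouped by role and ordered by the comparison of the constructs; DKK1 has no point for NFIB WT against EV. Filled red points mark the adjusted p under 0.05: DKK2 alone for NFIB WT against EV, none for NFIB ΔIDR against EV, and 7 genes for NFIB WT against NFIB ΔIDR, of which DKK1 lies below 0.

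Of the 6 tested secreted antagonists and Kremen, DKK2 and KREMEN1 were higher and DKK1 was lower in NFIB WT than in NFIB ΔIDR cells, beside 5.52% and 5.19% of all genes tested. DKK2, a Dickkopf that binds LRP6 and, depending on the context, inhibits or weakly activates the pathway, starts at chr4:107957453 (hg19, minus strand). It was at 25.6 and 21.8 CPM in NFIB WT cells and 9.61 and 8.71 CPM in NFIB ΔIDR cells, against 12.1 and 10.8 CPM in EV cells. Both NFIB WT libraries lay above all 4 others. In bulk RNA, fewer cells that express a gene and less RNA per cell cannot be told apart. NFIB WT was 2.07-fold above EV (log2 fold change 1.05 ± 0.15 SE, adjusted p = 0.0135 by edgeR) and 2.57-fold above NFIB ΔIDR (1.36 ± 0.16, adjusted p = 0.00114). NFIB ΔIDR was 0.803 times the EV level, which was not called (adjusted p = 0.431), although both of its libraries lay below both EV libraries. The call against EV was lost without EV replicate 1 (adjusted p = 0.139), EV replicate 2 (0.278), NFIB ΔIDR replicate 1 (0.0673) or NFIB ΔIDR replicate 2 (0.0684), and when only both groups compared entered the fit (0.081). The call between the constructs held in each of these edgeR fits.

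DKK1, the Dickkopf best known as an inhibitor of LRP6, behaved the other way at a level close to the detection floor. It had 2 and 3 counts in NFIB WT cells and 11 and 11 counts in NFIB ΔIDR cells, against 2 and 3 counts in EV cells, where 3 counts amount to 0.359 to 0.450 CPM. Only the NFIB ΔIDR libraries stood above that floor. DKK1 passed the filter on low counts only through them, so it was tested because of the group where it was high. Neither its call nor the intervals below are independent of that choice. With a filter of a mean of at least 1 CPM it was not tested. The ratio of summed counts, scaled by library totals, was 0.221 for NFIB WT over NFIB ΔIDR (exact 95% interval 0.0653 to 0.597) and 4.95 for NFIB ΔIDR over EV (1.83 to 16.7), intervals that cover counting error only. Between the constructs DKK1 was called in edgeR (log2 fold change -2.11 ± 0.54 SE, adjusted p = 0.0333), against EV it was not (2.23 ± 0.54, adjusted p = 0.0939), and no fold is given for NFIB WT against EV because both groups lay at or under the floor. The call was lost with only both compared groups in the fit (0.0581) and on leaving out any 1 of the 6 libraries, with adjusted p values of 0.0804 and 0.0807 without EV replicates 1 and 2, 0.182 and 0.209 without NFIB ΔIDR replicates 1 and 2, and 0.107 and 0.0579 without NFIB WT replicates 1 and 2. DKK1 overlaps PRKG1-AS1 on the other strand, and the sources used here do not state whether counting used strand.

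The 250 bases before the start of DKK1 are shown because the letters CTTTGA, the core to which TCF/LEF factors bind, occur there in both orientations, and 11.2% of the 35116 RefSeq promoter windows of that length hold them on either strand. DKK1 was the 1 window of 54 Wnt gene windows with a match. The window is chr10:52314031-52314280 on the plus strand (GRCh38.p14, sequence from RefSeq), with the matches in capitals.
DKK1: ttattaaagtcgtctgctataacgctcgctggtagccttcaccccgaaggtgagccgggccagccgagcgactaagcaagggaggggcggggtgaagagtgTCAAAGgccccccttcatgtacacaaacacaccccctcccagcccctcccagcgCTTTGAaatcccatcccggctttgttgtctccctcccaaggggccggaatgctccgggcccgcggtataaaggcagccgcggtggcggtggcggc
A match describes these letters and not a bound site.

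KREMEN1, a cell-surface receptor for Dickkopf proteins, starts at chr22:29469066 (hg19, plus strand). It was at 23.4 and 24.0 CPM in NFIB WT cells and 12.0 and 13.4 CPM in NFIB ΔIDR cells, against 16.9 and 17.2 CPM in EV cells. The groups did not overlap in any of the 3 comparisons. NFIB WT was 1.86-fold above NFIB ΔIDR (a log2 difference of 0.90 ± 0.13 SE, adjusted p = 0.0034 by edgeR), which was lost without NFIB ΔIDR replicate 1 (0.0715). Against EV the log2 fold changes were 0.47 for NFIB WT and -0.42 for NFIB ΔIDR, and neither was called (adjusted p = 0.145 and 0.185). DKK2 and its partner receptor KREMEN1 were thus both higher with full-length NFIB than with the form lacking the disordered region.

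The remaining antagonists were not called. DKK3 overlaps USP47 on the other strand, with the same limit on strand as DKK1. DKK3, a divergent Dickkopf, was at 3.60 and 3.61 CPM in NFIB WT cells and 4.60 and 4.28 CPM in NFIB ΔIDR cells, against 6.96 and 5.86 CPM in EV cells (log2 fold change -0.82 and -0.52 against EV, adjusted p = 0.163 and 0.294). SFRP2, which binds Wnts, was at 2.25 and 3.09 CPM in NFIB WT cells and 5.41 and 4.28 CPM in NFIB ΔIDR cells, against 3.55 and 2.87 CPM in EV cells, and the difference between the constructs had a log2 value of -0.85 (adjusted p = 0.0854). SFRP1 was at 6.0 and 5.28 CPM, 4.06 and 2.95 CPM, and 6.14 and 4.66 CPM in NFIB WT, NFIB ΔIDR and EV cells (0.67 between the constructs, adjusted p = 0.136). DKK4, KREMEN2, SFRP4, SFRP5, FRZB and WIF1 lay below the filter with 1 to 20 counts over all 6 libraries.

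**Figure D2:**
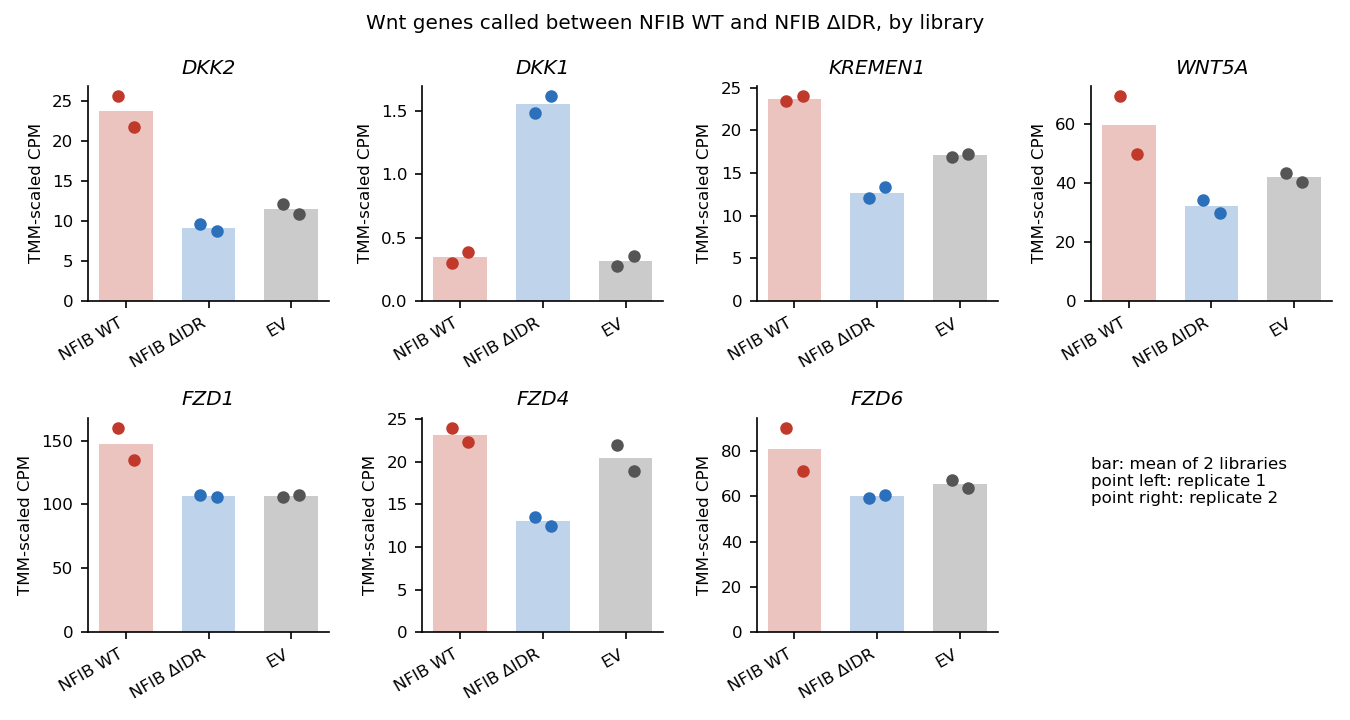
TMM-scaled CPM (y axis from 0, a scale per gene) of the 7 Wnt genes called between NFIB WT and NFIB ΔIDR, with a point per library and a bar for the mean of 2 libraries in NFIB WT, NFIB ΔIDR and EV cells. DKK2 reached 25.6 and 21.8 CPM in NFIB WT cells, above all other libraries, whereas DKK1 stood above the others in NFIB ΔIDR cells, at 1.49 and 1.62 CPM.

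Among the ligands, WNT5A was the most abundant per length and the 1 that was called. WNT5A, a ligand known mostly for signalling without beta-catenin, starts at chr3:55521670 (hg19, minus strand). It was at 69.4 and 49.7 CPM in NFIB WT cells and 34.2 and 29.8 CPM in NFIB ΔIDR cells, against 43.5 and 40.2 CPM in EV cells. The order NFIB WT, EV, NFIB ΔIDR held without overlap, with a wide gap between both NFIB WT libraries. NFIB WT was 1.85-fold above NFIB ΔIDR (a log2 difference of 0.89 ± 0.16 SE, adjusted p = 0.00679 by edgeR), a call lost without NFIB ΔIDR replicate 1 (0.0727) or replicate 2 (0.118). Against EV the log2 fold changes were 0.51 ± 0.15 for NFIB WT (adjusted p = 0.194) and -0.38 ± 0.16 for NFIB ΔIDR (adjusted p = 0.286).

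The other 5 tested ligands were low and none was called. WNT10A, WNT10B and WNT3, which signal through beta-catenin in many tissues, had means of 3.95, 3.73 and 2.71 CPM in NFIB WT cells, 5.25, 4.32 and 3.47 CPM in NFIB ΔIDR cells, and 5.09, 3.54 and 3.09 CPM in EV cells, with libraries that overlapped between the constructs. WNT4 was at 0.750 and 1.03 CPM in NFIB WT cells and 1.76 and 1.62 CPM in NFIB ΔIDR cells, against 1.5 and 1.79 CPM in EV cells (log2 fold change -0.87 against EV and -0.90 against NFIB ΔIDR, adjusted p = 0.405 and 0.205). WNT2B was at 0.900 and 1.80 CPM in NFIB WT cells and 1.89 and 3.10 CPM in NFIB ΔIDR cells, against 2.05 and 1.43 CPM in EV cells, and no comparison was called. The other 12 ligands (WNT1, WNT2, WNT3A, WNT5B, WNT6, WNT7B, WNT8A, WNT8B, WNT9A, WNT9B, WNT11 and WNT16) had 1 to 28 counts over all libraries, 8 of them at no more than 2 counts in every library, so ligand RNA beyond these 6 was not detectable at a level that could be tested. Summed per kilobase, the ligands came to 15.9 and 14.4 CPM per kilobase in NFIB WT cells and 13.3 and 11.4 in NFIB ΔIDR cells, against 13.5 and 12.6 in EV cells, of which WNT5A made up 62.6%, 41.6% and 51.3% on average.

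Of 8 tested Frizzled receptors, 3 were higher in NFIB WT than in NFIB ΔIDR cells and none was lower, beside 5.52% and 5.19% of all genes tested. FZD4, a receptor for Wnts and for norrin, was at 24.0 and 22.3 CPM in NFIB WT cells and 13.5 and 12.5 CPM in NFIB ΔIDR cells, against 22.0 and 18.9 CPM in EV cells. The NFIB ΔIDR libraries were the ones that stood apart. NFIB WT was 1.77-fold above NFIB ΔIDR (a log2 difference of 0.82 ± 0.14 SE, adjusted p = 0.0063 by edgeR), a call lost without NFIB ΔIDR replicate 1 (0.0727) or replicate 2 (0.0956). NFIB ΔIDR lay at 0.641 times the EV level (-0.64 ± 0.14), just outside the threshold (adjusted p = 0.0761), and NFIB WT differed from EV by 0.18 ± 0.13 (adjusted p = 0.565). The difference of NFIB ΔIDR from EV was called with no filter on low counts, with only both compared groups in the fit and with a replicate block. FZD4 shares exon sequence with PRSS23 on the other strand, which had a log2 fold change of 0.30 between the constructs (adjusted p = 0.377) and means of 8.92, 7.23 and 7.32 CPM in NFIB WT, NFIB ΔIDR and EV cells.

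FZD1, a receptor of the beta-catenin branch, had the reverse layout, with the NFIB WT libraries apart from the other 4. It was at 160 and 135 CPM in NFIB WT cells and 107 and 106 CPM in NFIB ΔIDR cells, against 106 and 107 CPM in EV cells. The log2 fold change was 0.47 ± 0.10 SE against NFIB ΔIDR (adjusted p = 0.0167 by edgeR) and 0.47 ± 0.10 against EV, where it missed the threshold (adjusted p = 0.0767). Against EV it was called with no filter on low counts and with a replicate block. The call between the constructs was lost when only both groups compared entered the fit (0.0533), without EV replicate 1 or 2 (0.052 for either) and without NFIB ΔIDR replicate 1 (0.154) or replicate 2 (0.178). The difference of NFIB ΔIDR from EV was -0.00 ± 0.10.

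FZD6, which is linked to planar cell polarity and can dampen the beta-catenin branch, was at 90.3 and 71.4 CPM in NFIB WT cells and 59.4 and 60.7 CPM in NFIB ΔIDR cells, against 67.2 and 63.5 CPM in EV cells. Its call was the weakest of the 7, with a log2 difference of 0.43 ± 0.12 SE between the constructs (adjusted p = 0.046 by edgeR). It was lost in DESeq2 (adjusted p = 0.0875), with scaling by library totals (0.0559), with only both compared groups in the fit (0.0992), without EV replicate 1 (0.0971) or 2 (0.0972), without NFIB ΔIDR replicate 1 (0.258) or 2 (0.253), and without NFIB WT replicate 1 (0.0624, log2 fold change 0.25). FZD6 overlaps BAALC-AS1 on the other strand, which lay below the filter.

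FZD3 was the most abundant Frizzled per length in EV cells, at 25.4 CPM per kilobase, with FZD1 next at 24.6, so their order there did not hold beyond the spread of the libraries. In NFIB WT cells FZD1 averaged 33.9 and FZD3 27.8 CPM per kilobase. FZD3 was at 445 and 321 CPM in NFIB WT cells and 287 and 284 CPM in NFIB ΔIDR cells, against 375 and 326 CPM in EV cells, and its log2 fold change between the constructs of 0.42 was not called (adjusted p = 0.0713). FZD2, FZD5, FZD7 and FZD8 had log2 fold changes of 0.38, -0.20, -0.20 and -0.03 between the constructs, none called. FZD9 and FZD10 lay below the filter with 34 and 2 counts in all. Over all Frizzled genes the summed level was 120 and 96.7 CPM per kilobase in NFIB WT cells and 84.8 and 83.8 in NFIB ΔIDR cells, against 95.4 and 91.8 in EV cells, with no overlap between the constructs.

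**Figure D3:**
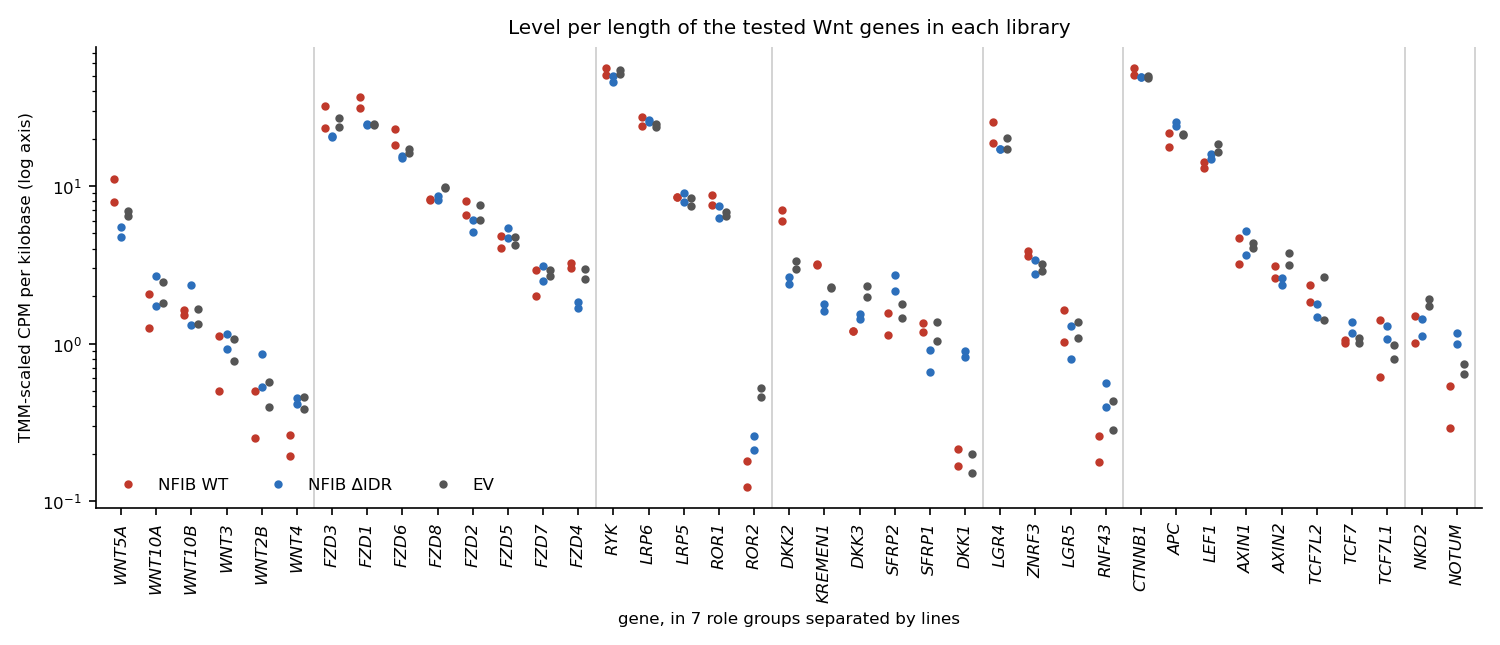
TMM-scaled CPM per kilobase of gene model (log y axis) of the 39 tested Wnt genes in each library, in 7 role groups and ordered within each by the mean in EV cells. CTNNB1 and RYK lie near the top at about the same height in all groups, FZD1 is higher in NFIB WT cells, and DKK1 and ROR2 show the widest relative gaps at low levels.

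The 250 bases before the starts of FZD1 and WNT5A are shown because both genes were called between the constructs and their windows differ in TGGCA, the half-site of the NFI family to which NFIB belongs. The FZD1 window has 1 and the WNT5A window nearest the start given above has 0. TGGCA or its reverse complement lies in 41.0% of all promoter windows and in 16 of 54 windows of the Wnt genes, so its presence is common. The full palindrome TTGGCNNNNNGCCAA, which shares its TGGC with the half-site, was in 0 of the 54 and in 0.0285% of all windows. The FZD1 window is chr7:91264183-91264432 on the plus strand and the WNT5A window is chr3:55487307-55487556 on the minus strand (GRCh38.p14, RefSeq), with the half-site in capitals.
FZD1: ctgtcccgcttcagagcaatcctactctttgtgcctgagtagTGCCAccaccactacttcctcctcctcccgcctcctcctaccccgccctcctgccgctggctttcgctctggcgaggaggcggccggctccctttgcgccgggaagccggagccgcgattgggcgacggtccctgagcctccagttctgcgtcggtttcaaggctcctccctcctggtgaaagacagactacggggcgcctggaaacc
WNT5A: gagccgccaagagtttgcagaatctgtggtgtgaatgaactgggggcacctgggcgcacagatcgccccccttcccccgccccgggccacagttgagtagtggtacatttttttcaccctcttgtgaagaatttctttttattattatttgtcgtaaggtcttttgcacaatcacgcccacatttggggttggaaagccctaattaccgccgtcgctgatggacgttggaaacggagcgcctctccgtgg
Matched to hg19, these windows end 35 bases from the FZD1 start and 336 bases from the WNT5A start given by the deposited table. Another listed WNT5A start, 6244 bases away, has 1 TGGCA in its window, and the FZD4 window has none. GGAAGGAA, a tandem of the core that EWS-FLI1 binds, was in 2 of the 54 windows and in 3.06% of all windows, and in none of the windows of WNT5A, FZD1, FZD4 or DKK1. Of the 39 tested members, 25 had a window. DKK2 and KREMEN1 were not among them, so these letters were not looked for before their starts.

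The coreceptors showed no called difference. LRP6, the coreceptor that Dickkopf proteins bind, was at 276 and 243 CPM in NFIB WT cells and 263 and 258 CPM in NFIB ΔIDR cells, against 250 and 238 CPM in EV cells, with a log2 fold change of -0.01 ± 0.09 SE between the constructs. LRP5 had a value of 0.01 ± 0.12 and RYK, a kinase-like Wnt receptor, 0.15 ± 0.09. ROR1 was at 57.7 and 49.6 CPM in NFIB WT cells and 41.3 and 49.0 CPM in NFIB ΔIDR cells, against 42.3 and 44.8 CPM in EV cells (0.30 against EV, adjusted p = 0.327). ROR2, a receptor for WNT5A, had 5 and 4 counts in NFIB WT cells and 8 and 6 counts in NFIB ΔIDR cells, against 16 and 16 counts in EV cells. Both EV libraries lay above the others, and ROR2 passed the filter on low counts only through them. The log2 fold changes against EV were -1.68 ± 0.44 for NFIB WT and -1.03 ± 0.40 for NFIB ΔIDR. Neither was called (adjusted p = 0.143 and 0.259 by edgeR).

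The R-spondin branch controls how many Frizzled receptors stay on the membrane: R-spondins bind LGR4 to LGR6 and so hold off the ubiquitin ligases ZNRF3 and RNF43. LGR4 was at 133 and 98.7 CPM in NFIB WT cells and 89.8 and 90.1 CPM in NFIB ΔIDR cells, against 106 and 90.2 CPM in EV cells (log2 fold change 0.36 between the constructs, adjusted p = 0.119). ZNRF3 was at 26.2 and 24.5 CPM in NFIB WT cells and 23.1 and 18.7 CPM in NFIB ΔIDR cells, against 21.7 and 19.5 CPM in EV cells. RNF43 had 10 and 8 counts in NFIB WT cells and 17 and 22 counts in NFIB ΔIDR cells, against 12 and 21 counts in EV cells (-1.13 ± 0.41 SE between the constructs, adjusted p = 0.101). LGR5 did not separate any pair of groups, at 5.02 to 7.95 CPM in NFIB WT cells, 3.92 to 6.35 CPM in NFIB ΔIDR cells and 5.32 to 6.69 CPM in EV cells. All 4 R-spondins and LGR6 lay below the filter, with 1 to 25 counts in all.

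None of the 8 genes of beta-catenin, its destruction complex and the TCF/LEF factors was called in any comparison in the fit of all 6 libraries. With other settings, APC between the constructs was called by library totals, with no filter on low counts and with a replicate block. For NFIB ΔIDR against EV, APC and AXIN2 were called when only both groups compared entered the fit. CTNNB1, which encodes beta-catenin, was at 208 and 189 CPM in NFIB WT cells and 182 and 183 CPM in NFIB ΔIDR cells, against 185 and 181 CPM in EV cells. APC, a scaffold of the destruction complex, was at 197 and 243 CPM in NFIB WT cells and 270 and 286 CPM in NFIB ΔIDR cells, against 239 and 237 CPM in EV cells (log2 fold change -0.34 ± 0.10 SE between the constructs, adjusted p = 0.0622). LEF1, a TCF/LEF factor, was at 53.8 and 58.6 CPM in NFIB WT cells and 61.4 and 65.5 CPM in NFIB ΔIDR cells, against 76.3 and 67.8 CPM in EV cells, without overlap between any groups (-0.35 for NFIB WT against EV, adjusted p = 0.192). AXIN2, a scaffold whose own gene is a widely used readout of beta-catenin activity, was at 11.1 and 13.1 CPM in NFIB WT cells and 9.88 and 11.1 CPM in NFIB ΔIDR cells, against 13.4 and 15.9 CPM in EV cells. Its log2 fold changes against EV were -0.27 ± 0.16 for NFIB WT and -0.49 ± 0.17 for NFIB ΔIDR (adjusted p = 0.486 and 0.20). AXIN1, TCF7, TCF7L1 and TCF7L2 had log2 fold changes between -0.34 and 0.40 over the 3 comparisons, none called.

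The feedback inhibitors were low. NOTUM, an enzyme that removes the lipid from Wnt proteins, had 8 and 5 counts in NFIB WT cells and 19 and 15 counts in NFIB ΔIDR cells, against 12 and 12 counts in EV cells. The 3 groups did not overlap, and the log2 fold change between the constructs was -1.39 ± 0.42 SE (adjusted p = 0.059 by edgeR). NKD2, which binds Dishevelled, was at 2.10 and 3.09 CPM in NFIB WT cells and 2.30 and 2.95 CPM in NFIB ΔIDR cells, against 3.96 and 3.58 CPM in EV cells, and was not called. NKD1 had 2 counts in all.

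Genes of the pathway outside these 65 were counted in 4 lists, and none was called against EV with either construct. Between the constructs 5.52% of all genes were called higher and 5.19% lower. Means below are in the order NFIB WT, NFIB ΔIDR and EV, with the log2 fold change between the constructs. Here 4 of 17 tested genes of Wnt secretion and signal relay were higher in NFIB WT than in NFIB ΔIDR and none lower. They were PORCN, which attaches the lipid to Wnts (4.89, 2.33 and 2.63 CPM, 1.06), and WLS, which carries Wnts to the surface (154, 118 and 142 CPM, 0.38). The others were TNKS, which marks axin for degradation (661, 485 and 517 CPM, 0.44), and DACT3, a Dishevelled antagonist (3.0, 0.849 and 1.92 CPM, 1.80). Of 16 tested genes of planar cell polarity and signalling without beta-catenin, 3 were higher and none was lower. They were VANGL1 (57.3, 32.0 and 40.0 CPM, 0.84), the receptor PTK7 (54.3, 38.2 and 50.6 CPM, 0.51) and NFATC4 (23.9, 16.4 and 20.3 CPM, 0.54). Of 14 coactivators and corepressors, 3 were lower and none was higher. They were the acetyltransferases CREBBP (79.6, 116 and 82.7 CPM, -0.54) and EP300 (128, 186 and 140 CPM, -0.54) and the corepressor TLE1 (2.45, 5.39 and 4.56 CPM, -1.11). For CREBBP and EP300 the NFIB ΔIDR mean lay above that of EV (log2 fold change 0.49 and 0.41), which was not called. Of 12 tested genes often cited as beta-catenin targets, CCND1 (1580, 1180 and 1260 CPM, 0.42) and ID2 (571, 454 and 504 CPM, 0.33) were higher and none was lower. CCND1, the gene of cyclin D1, is also on the list of Ewing sarcoma markers. The median log2 fold changes of the lists were 0.13, 0.08, 0.03 and 0.11 in that order, against -0.00 over all genes.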

How the data were processed

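RNA-seq was analysed in 6 libraries, 2 for each of 3 groups. The authors prepared total RNA libraries, aligned reads to hg19 with STAR 2.4.0h and counted them per RefSeq gene with featureCounts; CASAVA 2.19 is also named in the submitters' processing notes. The deposited values are raw counts per gene and library, with no normalization. How strand, multi-mapping reads and molecular identifiers were handled is not stated there. The deposited table gives for each gene a window of 2000 bases, whose midpoint lay within 100 bases of an annotated transcript start in 31 of 39 tested members and within 862 bases in all.

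In R 4.3.3, edgeR 4.0.16 filtered the genes (filterByExpr with a count of at least 10 and a total of at least 15), scaled the libraries by TMM and ran its quasi-likelihood F test. One model held all 6 libraries and estimated each group's mean, and Benjamini-Hochberg adjustment covered 13501 genes. The common biological coefficient of variation was 0.0776. Since each group had 2 libraries, a gene's own spread comes from differences between replicates in 3 pairs (3 degrees of freedom). The test moves that spread toward the trend over all genes, which carried a median weight of 7.78 degrees of freedom. The test was checked on counts simulated for NFIB WT against NFIB ΔIDR (13295 genes). There edgeR called 64.2% of 67 genes changed 1.5-fold, 84.5% of 58 changed 2-fold and 98.6% of 71 changed 4-fold. The simulation set 200 genes to change, fewer than the 1446 called between the constructs, and gave all groups the same spread. Its rates pool all levels, so they do not describe how often a Wnt gene of low level would be called. Alternatives were DESeq2 1.42.0, other scalings, filters, thresholds, a fit of the compared groups alone, robust estimation, a replicate block and leaving out each library. All count columns belong to the 6 samples.

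The members and lists were chosen with earlier results of these data known. Named were NFIB, DKK2, members called in any comparison, the 3 most abundant of each role group, and in each comparison the 6 members with the largest and the 6 with the smallest log2 fold change among those with a mean of at least 1 CPM; the remaining members are named to account for them. Opposite-strand overlaps and strands come from GENCODE on hg19, promoter sequences from RefSeq on GRCh38.p14. Of the 39 tested members, 14 share exon sequence with a gene on the other strand. For 7 of these that gene is in the table of counts: WNT2B, LEF1, TCF7, FZD6, DKK3, FZD4 and RNF43. The part of such reads in the counts was not tested.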

Additional observations from a re-analysis of the deposited data

How the results depend on the processing

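Values here are counts of called Wnt genes or log2 fold changes, in the order NFIB WT against EV, NFIB ΔIDR against EV and NFIB WT against NFIB ΔIDR, where 1, 0 and 7 were called. Over all genes the main fit called 83, 88 and 1446. With no filter on low counts the counts were 4, 3 and 12, in a fit of only both compared groups 0, 7 and 4, with an adjusted p under 0.1 they were 2, 2 and 11, and by a fold of at least 1.5 with an unadjusted p under 0.05 they were 3, 5 and 9. DESeq2 called 1, 0 and 5, beside 73, 80 and 726 of all genes, losing FZD6 and giving no adjusted p for DKK1. Deviations of replicate 1 had low positive correlations between groups (0.0156 to 0.153). Whether the replicate numbers pair the libraries was not tested beyond this. A replicate block gave 2, 1 and 11, and over all genes it called more than the main fit in each comparison. Leaving out 1 library gave 0 to 11, 0 to 7 and 1 to 14. For NFIB WT against NFIB ΔIDR, the counts were 4 without EV replicate 1 or 2, 1 and 2 without NFIB ΔIDR replicates 1 and 2, and 7 and 14 without NFIB WT replicates 1 and 2. For NFIB WT against EV they were 0 on leaving out any EV or NFIB ΔIDR library, 2 without NFIB WT replicate 1 and 11 without NFIB WT replicate 2. For NFIB ΔIDR against EV they were 7 without NFIB WT replicate 1 or 2 and 0 otherwise. A group left with 1 library is assumed to vary like the others. The number of calls over all genes moved in these fits as well, and the cause of these moves was not tested. In these leave-one-out fits DKK2 between the constructs was called each time. Signs changed in the other settings only for log2 fold changes near 0. For NFIB ΔIDR against EV these were FZD7 and FZD1 (0.02 each with library totals) and CTNNB1 (-0.0074 in DESeq2 and -0.01 with no filter). For NFIB WT against NFIB ΔIDR they were NKD2 (-0.0090 with library totals and -0.0033 with the replicate block), LRP5 (-0.0011 with library totals) and LRP6 (0.00041 in DESeq2 and 0.0021 with no filter). Leaving out a library also changed the sign of some uncalled genes, with these ranges. For NFIB WT against EV they were WNT2B -0.92 to 0.07, TCF7L1 -0.53 to 0.66, FZD7 -0.48 to 0.06, FZD5 -0.15 to 0.11, RYK -0.07 to 0.09, APC -0.27 to 0.03, TCF7 -0.08 to 0.02, FZD3 -0.12 to 0.35, SFRP1 -0.12 to 0.27, TCF7L2 -0.31 to 0.57, LRP6 -0.0032 to 0.18, WNT10B -0.07 to 0.25, LGR5 -0.27 to 0.40, AXIN1 -0.39 to 0.15, FZD2 -0.07 to 0.27 and WNT3 -0.89 to 0.27. For NFIB ΔIDR against EV they were WNT4 -0.08 to 0.17, ROR1 -0.08 to 0.17, FZD7 -0.17 to 0.14, WNT10A -0.29 to 0.33, CTNNB1 -0.02 to 0.02, FZD1 -0.02 to 0.0039, TCF7L2 -0.70 to 0.19, LRP5 -0.01 to 0.19, WNT10B -0.20 to 0.63, LGR5 -0.62 to 0.07, AXIN1 -0.20 to 0.30, WNT3 -0.05 to 0.41 and ZNRF3 -0.13 to 0.17. For NFIB WT against NFIB ΔIDR they were TCF7L1 -0.93 to 0.26, FZD7 -0.48 to 0.06, NKD2 -0.31 to 0.24, FZD8 -0.06 to 0.02, LRP5 -0.09 to 0.12, LRP6 -0.10 to 0.08, WNT10B -0.56 to 0.27, LGR5 -0.02 to 0.71, AXIN1 -0.45 to 0.11 and WNT3 -1.04 to 0.12. Depth limits the 26 untested members, none of which had more than 8 counts in a library.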
